A study of Homo sapiens with 6 samples.

Results

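The T-lineage surface molecules and coreceptors examined here are 10 genes: CD2, CD4, CD5, CD6, CD7, CD8A, CD8B, CD27, CD28 and CD38. They were taken by gene symbol from the expression tables of 6 RNA-seq libraries, which hold 60640 gene identifiers each, and 9 of the 10 were among the 12652 genes that passed the filter on low values. All 6 libraries come from MOLT-4, an established line of human T-ALL (T-cell acute lymphoblastic leukemia), and were made from polyadenylated RNA of cells grown in RPMI1640 medium with fetal bovine serum. The labels put 3 libraries in a wild type (WT) group, the control of a CRISPR knockout, and 3 in an IK-KO group, in which CRISPR was aimed at IKZF1, the gene of the zinc finger protein IKAROS. Knockout and control cells were bought as edited material, the study states that loss of IKAROS was checked by PCR and western blot and shows protein blots for a pair of knockout clones, and the labels do not name the clone that was sequenced. The labels also do not say whether the 3 libraries of a group came from separate cultures. The p-values therefore set the group difference against the spread between these libraries, which may be technical. Differences that arose with a clone cannot be told apart from those of the IKZF1 edit in this design. Levels are FPKM, that is, fragments scaled by transcript length and library depth, so levels of different genes can be set side by side.

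On the surface of a developing T cell, the coreceptors CD4 and CD8 bind MHC class II and class I beside the T-cell receptor and bring the kinase LCK to it. CD2 and CD28 are adhesion and costimulatory receptors, CD27 is a costimulatory receptor of the tumor necrosis factor receptor superfamily, and CD5 and CD6 are scavenger receptor cysteine-rich proteins that tune signalling through the T-cell receptor. CD7 is one of the earliest antigens of the T lineage and is kept by most T-ALL, and CD38 is an ectoenzyme that consumes NAD.

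The targeted gene IKZF1 was not lower in IK-KO at the RNA level. Its FPKM was 134, 124 and 105 in the WT libraries and 207, 260 and 207 in those labelled IK-KO. Every IK-KO library was above every WT library, with a log2 change of 0.89 (SE 0.12) at a limma adjusted p of 0.00295. RNA level does not report on the protein, and every direction below is that of the libraries labelled IK-KO against WT. The libraries had 21254 to 21887 table rows above 0, and read totals are not given. The cells carried T-lineage transcripts in all 6 libraries. The summed FPKM of 8 genes listed for the T-cell receptor complex was 4288 to 4517 in WT and 5249 to 5716 in IK-KO. CD3D alone was between 443 and 739 FPKM, while TRAC, another of the 8, was low and was called lower in IK-KO. The summed FPKM of 8 B-lineage markers was 1.62 to 3.81 in WT and 1.47 to 1.84 in IK-KO, and that of 8 myeloid markers was 0.232 to 0.850 and 0.731 to 0.891, with CD33 at 0 throughout. For 8 natural killer markers the sums were 3.54 to 5.53 and 1.76 to 5.39, with NCR1 and FCGR3A at 0, and for 7 erythroid and megakaryocyte markers 0.0168 to 0.691 and 0.360 to 1.01, with HBB and PF4 at 0. The sums of 6 progenitor markers were 10.2 to 13.6 and 9.14 to 10.6, mostly from CD34, and those of 6 stromal and epithelial markers were 1.01 to 2.27 and 1.64 to 1.88, with COL3A1 and EPCAM at 0. Of the 43 markers other than the T-lineage genes, 4 passed the filter on low values and none of the 4 was called.

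Of the 10 genes, 7 were lower in IK-KO and none was higher. By the ratio of mean FPKM, CD2 and CD28 fell most, CD4, CD7 and CD8A fell between 3.06-fold and 7.20-fold, and CD5 and CD6 fell by 2.17-fold and 1.91-fold. CD38 and CD8B did not pass the test, and CD27 was too low for it. A gene is called here when its limma p, adjusted over all 12652 genes, is under 0.05. Among all tested genes, 9.75% were called lower and 10.1% higher. On the log2(FPKM + 1) scale, 2.10% were both called lower and at least 2-fold lower, which was the case for 6 of the 9 tested members. That scale gives smaller folds at low levels than the ratio of mean FPKM. All 9 tested members had a log2 change below 0, called or not, as had 47.3% of all tested genes, and their median was -1.35 against 0.02 for all tested genes. CD4, CD8B and CD28 passed the filter only through their WT libraries, with IK-KO means under 1 FPKM, and had to be lower in IK-KO to be tested, so their share in these counts and in the median is fixed by the filter. Over all 10 members, CD27 included, the median difference of log2 means was -1.20. In 8 of the 10 genes, CD27 included, every IK-KO library was below every WT library. This held for 7 of the 9 tested members and for 18.1% of all tested genes. The members were chosen with earlier results of these data known, so these shares and medians are a description and not an independent test. In bulk RNA, fewer cells that carry a transcript and less of it per cell cannot be told apart.

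**Figure D1:**
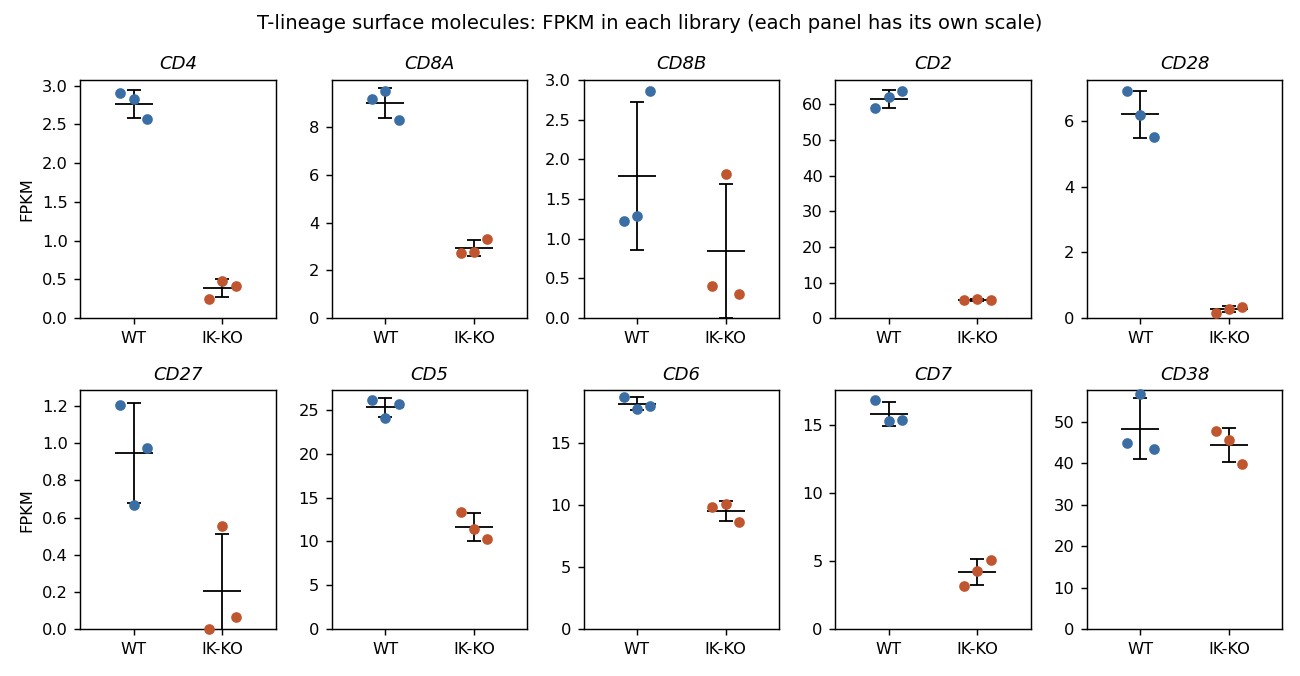
FPKM of the 10 genes in each library, 1 panel per gene with its own linear axis from 0. Each point is 1 library, with WT and IK-KO side by side, and bars give mean ± SD (n = 3), cut at 0 for CD8B and CD27. The 2 groups of points overlap only in CD8B and CD38.

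**Figure D2:**
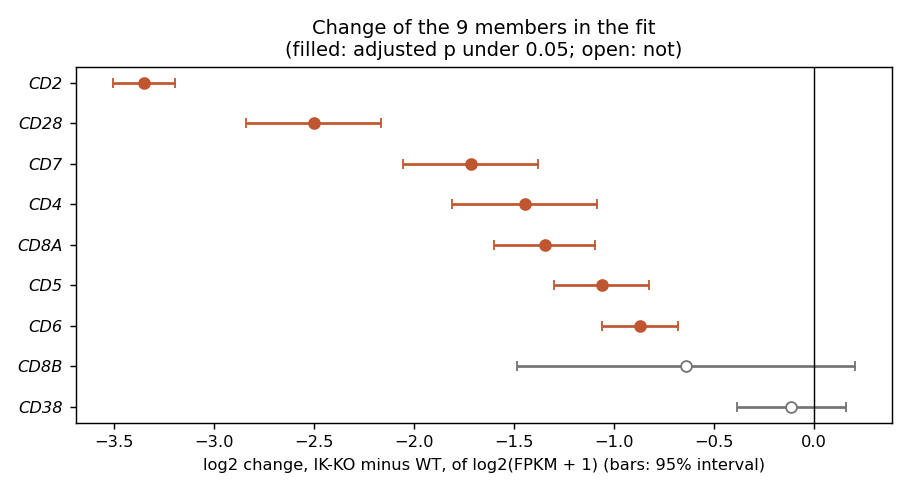
Log2 change of each gene, IK-KO minus WT, on the scale of log2(FPKM + 1), with its 95% interval from limma. CD2 lies lowest at -3.35, and the intervals of CD8B and CD38 span 0. CD27 is not shown because it was not tested.

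The promoter sequences of the 2 genes that fell most and of the one abundant gene that was not called are shown for comparison. They are the 250 bases before the RefSeq start on GRCh38.p14, read 5′ to 3′ on the strand of the gene, which is the plus strand for all 3. Capitals mark GGGAA or its reverse complement TTCCC, a core of the sequence that IKAROS family zinc fingers bind. The windows are chr1:116754180-116754429 for CD2, chr2:203706389-203706638 for CD28 and chr4:15778078-15778327 for CD38.
CD2: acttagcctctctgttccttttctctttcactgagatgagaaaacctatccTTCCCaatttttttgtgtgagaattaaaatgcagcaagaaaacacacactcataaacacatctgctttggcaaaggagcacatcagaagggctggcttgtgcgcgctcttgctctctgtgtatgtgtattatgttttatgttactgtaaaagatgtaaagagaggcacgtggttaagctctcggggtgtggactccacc
CD28: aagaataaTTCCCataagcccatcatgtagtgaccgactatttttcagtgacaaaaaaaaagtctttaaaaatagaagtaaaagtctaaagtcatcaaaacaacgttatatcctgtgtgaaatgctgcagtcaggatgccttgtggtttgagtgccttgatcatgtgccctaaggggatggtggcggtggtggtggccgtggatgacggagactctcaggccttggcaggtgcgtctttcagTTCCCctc
CD38: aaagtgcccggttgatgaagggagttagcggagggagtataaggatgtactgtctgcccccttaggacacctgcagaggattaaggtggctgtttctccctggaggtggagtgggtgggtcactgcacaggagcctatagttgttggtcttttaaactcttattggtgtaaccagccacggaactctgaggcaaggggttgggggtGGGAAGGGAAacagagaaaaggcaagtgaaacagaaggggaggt
The CD2 window held 1 match, 199 bases before the start, the CD28 window 2, at 242 and 8 bases, and the CD38 window 2 that adjoin each other at 44 and 39 bases. For CD28 and CD38 the start in the GENCODE annotation lies inside the window shown. Such a match was present in 59.0% of the 35116 RefSeq windows of this length, so its presence sets none of these genes apart. The CD28 window alone of the 3 held TGTGGT, a core of the motif of RUNX factors, which 11.0% of all windows held on either strand. The GATA factor motif AGATAA was searched on both strands too, and it was in none of the 3 windows and in 9.17% of all. A match is a stretch of letters, not a site shown to be bound, and binding was not measured in these libraries. The table also had windows for CD27 and CD8A, and none for CD4, CD5, CD6, CD7 and CD8B.

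Of the MHC coreceptor genes, CD4 and CD8A were at low levels in WT and fell in IK-KO, while CD8B was not called. CD4 (chr12:6786858-6820799, GRCh38, 10 exons) had an FPKM of 2.91, 2.82 and 2.57 in WT and of 0.254, 0.479 and 0.420 in IK-KO. The highest IK-KO library was below the lowest WT library by a wide margin, and the mean in IK-KO was 13.9% of that in WT. The log2 change was -1.45 (SE 0.15, 95% interval -1.81 to -1.08, limma adjusted p = 0.00107). The confidence bounds that the authors' quantification gives for CD4 are broad, with half-widths of 30.3% to 240% of the value, but its highest upper bound in IK-KO, 1.02, was below its lowest lower bound in WT, 1.66. The log2(FPKM + 1) scale understates changes at such levels, and with 0.1 in place of 1 the change of CD4 was -2.59.

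CD8A, the alpha chain that forms CD8 as a homodimer or with CD8B (chr2:86784610-86808396, 6 exons), had an FPKM of 9.21, 9.53 and 8.32 in WT and of 2.73, 2.77 and 3.32 in IK-KO. The groups were well apart, with 9.02 ± 0.627 in WT and 2.94 ± 0.331 in IK-KO (mean ± SD, n = 3). The mean FPKM fell 3.06-fold. On the log2(FPKM + 1) scale the change was -1.35 (SE 0.11, 95% interval -1.60 to -1.09, limma adjusted p = 0.000347). CD8B, the beta chain (chr2:86815339-86861924, 6 exons), is the neighbouring gene, 6.94 kb away on the same strand. Its FPKM was 1.22, 1.28 and 2.86 in WT and 0.405, 1.82 and 0.306 in IK-KO. WT replicate 3 and IK-KO replicate 2 stood above the other libraries of their groups and the groups overlapped, so the log2 change of -0.64 had a 95% interval of -1.49 to 0.21 (limma adjusted p = 0.263). Of the 5366 stretches of 50 bases in CD8B transcripts, 46.8% also occur in its near-identical copy CD8B2, which was listed at 0.0374 FPKM in WT replicate 3 and at 0 elsewhere. The division of reads between the 2 copies is therefore uncertain.

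The ratio of CD4 to CD8A was 0.316, 0.296 and 0.308 in WT and 0.0929, 0.173 and 0.126 in IK-KO. Every IK-KO ratio was lower, with a log2 difference of -1.28, but an exact permutation test of 3 against 3 libraries cannot go below 0.1, which is the two-sided p it gave (0.3 adjusted over the 3 ratios computed). With 1 added to both FPKM values the difference was -0.10. The ratio of CD8B to CD8A ranged from 0.133 to 0.344 in WT and from 0.0920 to 0.656 in IK-KO, which overlapped (log2 difference 0.18, exact permutation p = 0.8, adjusted 0.8).

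The kinase LCK, which both coreceptors carry to the receptor, was not called. Its level was 216 ± 7.62 FPKM in WT and 227 ± 3.58 in IK-KO (mean ± SD, n = 3), with overlapping groups and a log2 change of 0.07 (limma adjusted p = 0.327). The related kinase FYN, which also acts below the T-cell receptor, rose from 72.0 ± 2.31 to 134 ± 1.19 FPKM (log2 change 0.88, SE 0.05, limma adjusted p = 6.57e-05).

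CD2, a transmembrane adhesion receptor that binds CD58 on other cells, fell furthest of the abundant members. CD2 (chr1:116754430-116769229, 5 exons) had an FPKM of 58.9, 62.0 and 63.7 in WT and of 5.04, 5.39 and 4.98 in IK-KO. Libraries within each group were close together and the groups lay far apart. The fall was 12.0-fold, to 8.35% of the WT mean, and the log2 change was -3.35 (SE 0.07, 95% interval -3.50 to -3.19, limma adjusted p = 1.41e-06). Only 8 of the 12652 tested genes had a lower log2 change. CD58, the ligand, was itself expressed and fell from 13.5 ± 1.74 to 7.06 ± 1.10 FPKM (log2 change -0.85, SE 0.13, limma adjusted p = 0.00515). The CD58 gene lies 183 kb from CD2 on chromosome 1 and was the one tested gene within 250 kb of it.

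CD28, the costimulatory receptor for CD80 and CD86 (chr2:203706475-203738912, 4 exons), had an FPKM of 6.91, 6.17 and 5.50 in WT and of 0.169, 0.288 and 0.350 in IK-KO. WT libraries were at a low level and IK-KO libraries near 0, without overlap. The mean fell 23.0-fold, from 6.20 ± 0.706 to 0.269 ± 0.0919, the largest ratio of means among the called members. The log2 change was -2.50 (SE 0.14, 95% interval -2.84 to -2.16, limma adjusted p = 1.00e-04), and it was -4.12 with 0.1 added in place of 1. Half-widths of the authors' bounds for CD28 ran from 18.3% to 157% of the value, and its lowest lower bound in WT, 4.49, was above its highest upper bound in IK-KO, 0.697. The ligand genes were almost silent, with CD80 at most 0.0523 FPKM and CD86 at most 0.0725 FPKM in any library. ICOS, a costimulatory receptor of the same family encoded 198 kb from CD28, had an FPKM of 2.32, 2.06 and 1.80 in WT and of 0.727, 0.809 and 0.707 in IK-KO. The groups of ICOS values were apart (log2 change -0.80, SE 0.15, limma adjusted p = 0.0107), and ICOS was the one tested gene within 250 kb of CD28.

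CD27 (chr12:6444867-6451718) was at the limit of measurement, at 1.21, 0.667 and 0.972 FPKM in WT and 0, 0.554 and 0.0655 in IK-KO. The groups did not overlap, but the authors' bounds did, with a lowest lower bound of 0.300 in WT and a highest upper bound of 0.931 in IK-KO. The mean over all libraries was under 1 FPKM, so CD27 was not tested, and in a fit without that filter its log2 change was -0.71 with a limma adjusted p of 0.133. CD27-AS1, an antisense gene, overlaps CD27, and 31.8% of the 50-base stretches of CD27 also occur in it. CD27-AS1 was more abundant, at 12.8, 11.8 and 12.2 FPKM in WT and 23.5, 17.8 and 22.0 in IK-KO, and it rose (log2 change 0.73, SE 0.11, limma adjusted p = 0.00444). How strand was treated in quantification is not given in the sources used here, so reads from the stretches that the 2 genes share cannot be told apart. CD70, the ligand of CD27, had 6.31, 6.77 and 6.27 FPKM in WT and 1.96, 2.97 and 2.31 in IK-KO. All IK-KO libraries were below WT (log2 change -1.14, SE 0.13, limma adjusted p = 0.00168).

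CD5 and CD6 are paralogous genes side by side on chromosome 11, with 82.1 kb between them. CD5 (chr11:61102489-61127852, 11 exons) had an FPKM of 26.2, 24.1 and 25.8 in WT and of 13.4, 11.4 and 10.2 in IK-KO. CD6 (chr11:60971680-61020377, 13 exons) had 18.7, 17.7 and 18.0 FPKM in WT and 9.85, 10.0 and 8.61 in IK-KO. For both genes the groups were apart, with IK-KO means at 46.1% of WT for CD5 and 52.4% for CD6. The log2 change was -1.06 for CD5 (SE 0.10, limma adjusted p = 0.000665) and -0.87 for CD6 (SE 0.08, limma adjusted p = 0.000622). The CD6 to CD5 ratio was 0.715, 0.736 and 0.698 in WT and 0.736, 0.881 and 0.840 in IK-KO. The groups overlapped at 0.736, with a log2 difference of 0.19 (exact permutation p = 0.2, adjusted 0.3), so unequal change of the pair was not shown. ALCAM, the ligand of CD6, was at 5.03 ± 0.577 FPKM in WT and 4.65 ± 0.225 in IK-KO, with a log2 change of -0.09 (limma adjusted p = 0.626).

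CD7 (chr17:82314868-82317608, 4 exons), an early T-lineage antigen of the immunoglobulin superfamily, had an FPKM of 16.8, 15.2 and 15.4 in WT and of 3.17, 4.25 and 5.09 in IK-KO. No libraries of the 2 groups overlapped, and the mean fell 3.79-fold, from 15.8 ± 0.887 to 4.17 ± 0.960 FPKM. The log2 change was -1.72 (SE 0.14, 95% interval -2.05 to -1.38, limma adjusted p = 0.000412).

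CD38, the NAD-consuming ectoenzyme (chr4:15778275-15853232, 8 exons), stood apart from the rest. Its FPKM was 44.9, 56.8 and 43.5 in WT and 47.8, 45.7 and 39.9 in IK-KO. The groups overlapped and WT replicate 2 was above the other 5 libraries. The log2 change was -0.11 with a 95% interval of -0.39 to 0.16 (limma adjusted p = 0.544), which leaves room for a small change but not for one of the size seen in the 7 called members. Without WT replicate 2 the change was 0.0043. BST1, the paralog of CD38 encoded 40.0 kb from it, was at 1.38 ± 0.155 FPKM in WT and 1.65 ± 0.217 in IK-KO (log2 change 0.15, limma adjusted p = 0.533).

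These falls changed the order of the 10 genes. In WT the order from the highest mean was CD2, CD38, CD5, CD6, CD7, CD8A, CD28, CD4, CD8B and CD27, and only CD4 and CD8B overlapped among neighbours in that order. In IK-KO it was CD38, CD5, CD6, CD2, CD7, CD8A, CD8B, CD4, CD28 and CD27. There CD2 overlapped with CD7, CD7 with CD8A, and each of the last 4 with its neighbour. CD2 went from first to the fourth place and CD28 from the seventh to the ninth. The summed FPKM of the 10 genes was 187, 196 and 187 in WT and 82.8, 82.7 and 73.3 in IK-KO. The IK-KO sums were all lower, and CD38 made up 54.5% to 57.7% of them against 23.3% to 28.9% in WT. The share of CD2 was 31.5% to 34.1% in WT and 6.09% to 6.80% in IK-KO.

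Other genes of the same families and pathways were counted by list, and the counts stand beside the 19.9% of all tested genes that were called in either direction. The lists too were chosen with earlier results of these data known, so the counts are a description. Of 14 ligands and binding partners of the 10 molecules, 7 were tested, none was called higher and 3 were called lower, namely CD58, CD70 and CD59, a membrane inhibitor of complement. CD59 had a log2 change of -0.41 (limma adjusted p = 0.0205) and lost its call without IK-KO replicate 2, IK-KO replicate 3, WT replicate 1 or WT replicate 2. The call of CD59 was also lost without the filter on low values and with the replicate number as a block. The median log2 change of the 7 was -0.41. Of 21 receptors related to the members by family, 7 were tested, none was called higher and 5 were called lower, with a median of -0.80. SLAMF6, a receptor of the CD2-related SLAM family, fell from 13.0 ± 0.205 to 5.10 ± 0.265 FPKM (log2 change -1.20, SE 0.08, limma adjusted p = 0.000154). CD84, another SLAM receptor, fell from 18.4 to 9.27 FPKM (log2 change -0.92, limma adjusted p = 0.00129), and ICOS was also among the 5. The last 2 were PDCD1, the inhibitory receptor PD-1 of the CD28 family (log2 change -1.20, limma adjusted p = 0.0169), and TNFRSF25, a death receptor related to CD27 (log2 change -0.60, limma adjusted p = 0.0285). PDCD1 and TNFRSF25 lost their calls when IK-KO replicate 2, IK-KO replicate 3, WT replicate 1 or WT replicate 2 was left out. Both also lost them without the filter on low values, and each of these settings left 3 receptors called. TNFRSF25 further lost its call without IK-KO replicate 1 and with the replicate number as a block. ICOS and PDCD1 passed the filter only through WT and had to be lower in IK-KO to be tested. Their share in the 5 calls and in the median of -0.80, which is the value of ICOS, is therefore fixed by the filter. A further 5 related receptors, among them CTLA4 and CD40, were listed at 0 in all libraries.

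Genes that act below these receptors moved in both directions. Of 25 signalling genes 23 were tested, with 4 called higher, 7 called lower and a median log2 change of -0.17. Those called higher were FYN, PTPN6, a phosphatase that opposes receptor signalling (log2 change 0.81, limma adjusted p = 0.00681), SH3KBP1, an adaptor related to CD2AP (0.59, limma adjusted p = 0.000485), and GRB2, an adaptor of receptor signalling (0.36, limma adjusted p = 0.00197). TRAF5, an adaptor of CD27, fell most, from 8.45 ± 1.06 to 4.59 ± 0.927 FPKM (log2 change -0.76, SE 0.15, limma adjusted p = 0.0129), and lost its call without WT replicate 2 or 3 and without the filter.

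In the T-cell receptor complex, beside which CD4 and CD8 act and with which PTCRA of the pre-T-cell receptor was listed, most genes were called higher. Some of these calls were not stable. All 8 of them were tested, with 5 called higher, 1 called lower and a median log2 change of 0.37. CD247, the zeta chain, rose from 66.0 ± 0.883 to 246 ± 15.4 FPKM (log2 change 1.88, SE 0.06, limma adjusted p = 7.79e-06). CD3G rose by 0.65 (limma adjusted p = 0.00158), TRBC2 by 0.29 (limma adjusted p = 0.00568), CD3D by 0.44 (limma adjusted p = 0.0338) and PTCRA, the pre-T-cell receptor alpha chain, by 0.69 (limma adjusted p = 0.0466) on the log2 scale. TRAC, the constant region of the receptor alpha chain, was called lower, at 8.92 ± 0.972 in WT and 1.57 ± 0.377 FPKM in IK-KO (log2 change -1.95, SE 0.14, limma adjusted p = 0.000235). The count of called genes was 3 without the filter on low values, where CD3D, PTCRA and TRBC2 lost their calls. Leaving out IK-KO replicate 2, IK-KO replicate 3 or WT replicate 2 also ended the calls of CD3D and PTCRA, as did WT replicate 1 for CD3D and IK-KO replicate 1 or WT replicate 3 for PTCRA. CD3D further lost its call with median-of-ratios scaling and without the mean-variance trend, and PTCRA with the replicate block. Reads of TRBC2 are uncertain because TRBC1 is a near-identical copy.

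Among 25 genes listed as other surface antigens of lymphocytes, 21 were tested, with 6 called higher, 6 called lower and a median log2 change of 0.11. CD37 among those called lower passed the filter only through WT, and CD226, which was not called, only through IK-KO. CCR9, a chemokine receptor of thymocytes, rose from 56.0 ± 1.70 to 150 ± 2.24 FPKM (log2 change 1.41, SE 0.05, limma adjusted p = 8.93e-06). CD1E, a CD1 family gene of cortical thymocytes, fell from 231 ± 17.5 to 79.4 ± 4.50 FPKM (log2 change -1.53, SE 0.07, limma adjusted p = 4.09e-05). Of 20 transcriptional regulators known to act on coreceptor genes, 19 were tested, with 7 called higher, 1 called lower and a median of 0.17. IKZF3, the IKAROS family member AIOLOS, rose from 3.74 ± 0.279 to 8.16 ± 0.361 FPKM (log2 change 0.95, SE 0.09, limma adjusted p = 0.000793). ETS1, an ETS factor of T cells, was the 1 called lower, falling from 120 ± 9.50 to 86.0 ± 1.33 FPKM (log2 change -0.48, SE 0.06, limma adjusted p = 0.00302).

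**Figure D3:**
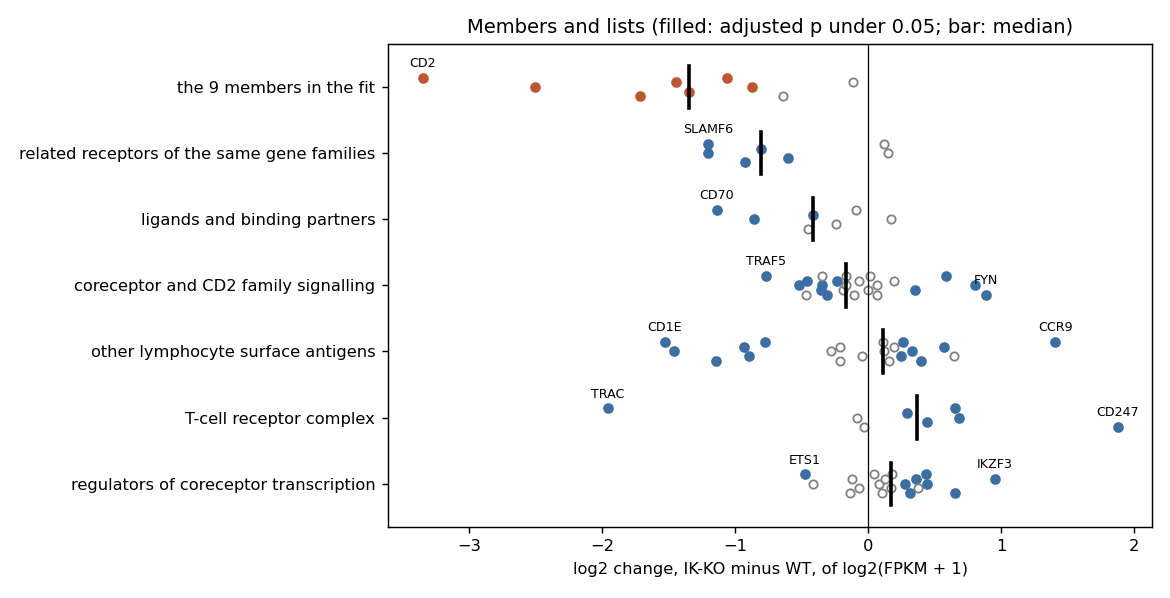
Log2 change, IK-KO minus WT, of each tested gene of the members and of the lists, 1 row per list. Filled points passed limma at an adjusted p under 0.05, open points did not, and each short bar is the median. The medians run from -1.35 for the members to 0.37 for the T-cell receptor complex.

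Around the members, tested genes within 250 kb were called lower at a share near that of all tested genes, and higher at a larger one. Within 2 Mb of each member, the median log2 change of the tested genes lay between -0.02 around CD7 and 0.11 around CD5 and CD6. Within 250 kb, 72 genes that are not members were tested, of which 8 were called lower and 14 higher, or 11.1% and 19.4%. Over all tested genes 9.75% were called lower and 10.1% higher, and some of the 72 lie beside each other. Beside CD8A, RMND5A at 6.57 kb had a log2 change of 0.12 (limma adjusted p = 0.279). Beside CD5, VPS37C at 2.40 kb had one of -0.08 (limma adjusted p = 0.745), and beside CD7, CSNK1D at 41.1 kb had one of 0.03 (limma adjusted p = 0.865). CD58 and ICOS, the only tested genes within 250 kb of CD2 and of CD28, were called lower like the member. Their log2 changes were -0.85 and -0.80. Other neighbours moved against the member beside them. TMEM132A, a transmembrane protein gene 34.5 kb from CD6, had an FPKM of 0.668, 0.758 and 0.966 in WT and of 16.6, 17.5 and 15.8 in IK-KO. All IK-KO libraries were far above WT, by 3.30 on the log2 scale (SE 0.11, limma adjusted p = 8.97e-06). TEX19, 41.6 kb from CD7, rose from 0.724 to 3.31 FPKM (log2 change 1.33, SE 0.15, limma adjusted p = 0.00129). TMEM132A and TEX19 passed the filter only through IK-KO, and ICOS only through WT.

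Around CD4 there were 28 tested genes within 250 kb, of which 2 were called lower and 6 higher. The nearest on each side, PTMS and CDCA3, were not called (log2 changes -0.21 and 0.11, limma adjusted p = 0.599 and 0.318). The largest of the rises was that of PTPN6, 126 kb away, from 18.7 ± 0.894 to 33.9 ± 6.50 FPKM, followed by ATN1 at 104 kb with a log2 change of 0.58 (limma adjusted p = 0.00232). C12orf57, CHD4, ZNF384 and GAPDH had rises between 0.16 and 0.48, and the 2 called lower were TPI1 at 46.3 kb, the enzyme triosephosphate isomerase (-0.21, limma adjusted p = 0.0146), and AC006064.4 (-0.73, limma adjusted p = 0.0488). The calls of ZNF384, GAPDH and AC006064.4 were kept in 6 of 15 alternatives each, and in none that left out an IK-KO library. That of TPI1 was lost without IK-KO replicate 1, without IK-KO replicate 3 and without the mean-variance trend. Around CD27 on the same arm, CD9, a tetraspanin 207 kb away, fell from 7.24 ± 1.25 to 2.71 ± 0.445 FPKM (log2 change -1.15, limma adjusted p = 0.00287), NCAPD2 fell (-0.29, limma adjusted p = 0.0104) and TNFRSF1A rose (0.44, limma adjusted p = 0.0108), while VAMP1, the nearest on the right of CD27 at 10.5 kb, was not called (-0.12, limma adjusted p = 0.544).

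Near the other members, VWCE rose (0.42, limma adjusted p = 0.037) and CYB561A3 fell (-0.33, limma adjusted p = 0.0304) within 250 kb of CD5. FASN, the fatty acid synthase, fell 217 kb from CD7 (-0.50, limma adjusted p = 0.00247). RGPD1 rose 46.0 kb from CD8B (0.37, limma adjusted p = 0.0232). FAM200B and FBXL5 rose within 250 kb of CD38 (0.81 and 0.31, limma adjusted p = 0.00331 and 0.0168). The call of FBXL5 was lost in 4 of the 6 fits that left out 1 library, that of RGPD1 in all 6, and those of VWCE and CYB561A3 in 5 each.

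**Figure D4:**
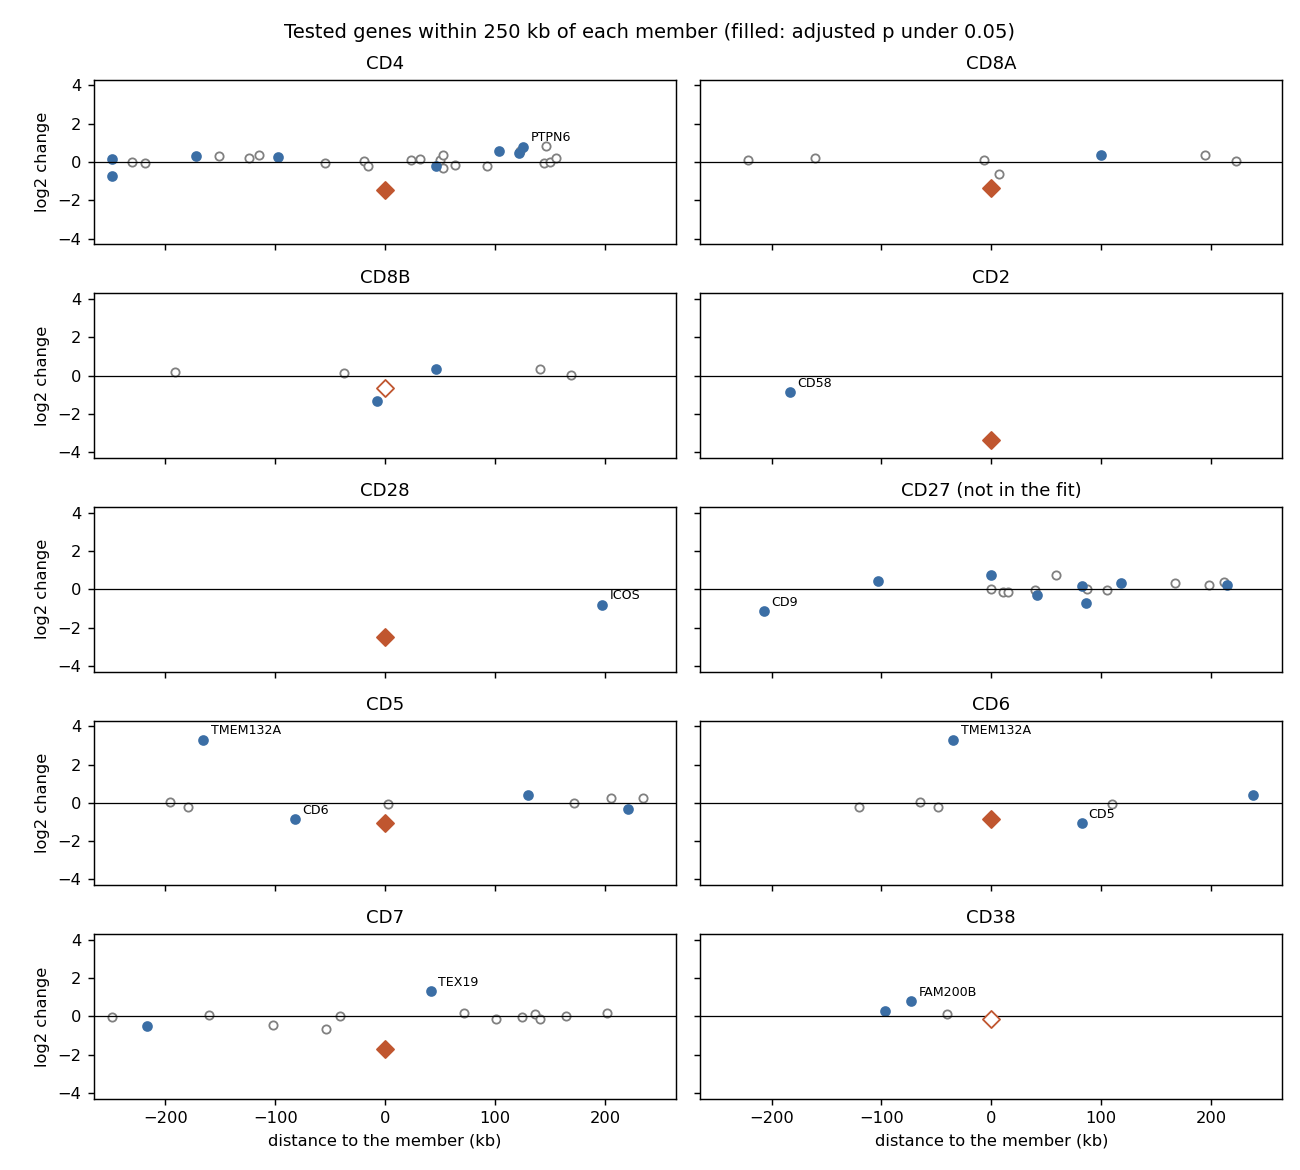
Log2 change, IK-KO minus WT, of tested genes within 250 kb of each member, against their distance from it in kb. Diamonds at 0 kb are the members, and filled points passed limma at an adjusted p under 0.05. The point at 3.30 near CD6, which also appears near CD5, is TMEM132A.

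The genes whose profile over the 6 libraries was closest to that of CD2 were sought among the 6861 tested genes with a mean of at least 10 FPKM, by root mean square distance between centred log2(FPKM + 1) values. GIMAP7, a GTPase of lymphocytes, was closest at a distance of 0.254, with a fall from 22.2 ± 1.03 to 1.25 ± 0.551 FPKM. RAB32, a small GTPase of lysosome-related organelles, came next at 0.391, with 51.1 ± 2.14 and 7.55 ± 1.38 FPKM. PRKCH, a protein kinase C isoform, was at 0.404, with 28.2 ± 2.88 and 1.24 ± 0.938 FPKM. With 3 libraries in each group, this likeness mostly reads the size of the fall and is a description.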

How the data were processed

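RNA-seq of polyadenylated RNA was performed on 3 WT and 3 IK-KO libraries of MOLT-4. The authors deposited FPKM values per gene, scaled for transcript length and library depth, each with its confidence bounds and a status of the estimate. The submitters' processing notes name STAR 2.6.1c, Cufflinks 2.2.1, HOMER 4.10 and build hg38 without their roles. The annotation and strand setting are not given in the sources used here. Depth is unknown because the tables hold no counts, and precision is read from the authors' bounds. The study's supplementary methods for RNA-seq mention merged technical replicates without naming libraries.

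Rows of 1 identifier were summed and identifiers without an OK status in any library were left out. IK-KO was compared with WT by limma (version 3.58.1, R 4.3.3) on log2(FPKM + 1), two-sided, using lmFit and eBayes with trend and Benjamini-Hochberg adjustment, over genes with a mean of at least 1 FPKM. The scale understates changes of low genes. The fit was tested on simulated data. Alternatives changed the pseudocount, filter, scaling, variance model, failed estimates and replicate block, or left out 1 library. Sharing of 50-base stretches was counted in GENCODE transcripts. Coordinates are on GRCh38, counted from 1.

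The members and lists were chosen with earlier results of these data known. Genes named are the 10 members, their direct ligands, LCK, IKZF1, the largest called rise and fall of each list, the nearest and called neighbours within 250 kb, and the 3 genes closest to CD2. No member rose, so likeness was not computed for a rise. The other genes named (CD59, CD84, PDCD1, TNFRSF25, SH3KBP1, GRB2, CD3D, CD3G, TRBC2, PTCRA, CD37, CD226, the marker genes, CTLA4, CD40, CD8B2 and CD27-AS1) were chosen after their values were seen.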

Additional observations from a re-analysis of the deposited data

How the results depend on the processing

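All 7 called members kept their direction and their call under the 15 alternatives, with log2 changes of -3.56 to -3.32 for CD2, -2.59 to -1.35 for CD4, -1.16 to -0.98 for CD5, -0.93 to -0.81 for CD6, -1.92 to -1.57 for CD7, -1.59 to -1.31 for CD8A and -4.12 to -2.42 for CD28. CD8B was not called under any of the 15, at -1.26 to -0.38 with limma adjusted p from 0.0791 to 0.535, and CD27 could be tested only without the filter. With 1 library left out, CD38 ranged from -0.18 to 0.0043, the sign changing without WT replicate 2, and the log2 difference of the CD8B to CD8A ratio from -0.65 to 0.77. With 1 added to both values it was -0.10 for the CD4 to CD8A ratio. The related receptors had 3 called genes without the filter and 3 to 5 with 1 library left out, and the T-cell receptor complex 3 without the filter. The cause was not tested. Over all genes, 1692 to 2803 were called, of which 45.1% to 55.5% were higher. Same-numbered libraries did not deviate together (r = 0.0669, 0.0248 and 0.0055), and with the replicate number as a block 1805 genes and the same number of members, 7, were called, which changed no member's call. Of 69 called genes among the lists and neighbours, members included, 52 kept their call wherever tested and none changed sign. Low FPKM limits CD4, CD8B, CD27 and CD28, whose bounds are wide, and 3 libraries per group limit every test.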
